A study of Mus musculus with 4 samples.

Results

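The cerebellum of mice labelled Eftud2 cKO was followed from postnatal day 10 (P10) to postnatal day 14 (P14) by comparing the 2 droplet-based single-cell RNA libraries of that genotype, gene by gene, over the whole library and within cell classes. The members were every cell barcode of the P10 cKO and P14 cKO libraries with at least 500 genes and at most 20% of its unique molecular identifiers (UMIs) from mitochondrial genes, which gave 6593 and 6308 cells, or 12901 of the 42576 cells that pass the same limits in the 4 libraries. The other libraries, from wild-type (WT) mice, held 14280 cells at P10 and 15395 at P14. The 2 cKO groups share the genotype label, a conditional knockout of Eftud2, and differ by age; no treatment is named for any group. Whole cerebella without meninges were dissociated with trypsin, per the labels. The Cre line, the deleted part of the gene, the sex, and how many mice went into a library are not given in the labels; the series title names Purkinje cells as the deficient cells. With 1 library a side no difference has a replicate check, age cannot be told apart from the library, and every interval below is a 95% interval for counting error only.

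Eftud2 is the gene of a GTP-hydrolysing protein in the U5 particle of the spliceosome, the machine that removes introns from pre-mRNA. In the second postnatal week of the mouse, granule cell progenitors in the external granular layer divide under Sonic hedgehog (Shh) released by Purkinje cells, leave the cell cycle, migrate inward and mature into granule neurons. Over the same days oligodendrocytes begin to myelinate, astroglia mature into Bergmann glia and other astrocytes, and microglia, the resident macrophages of the brain, clear debris and can respond to interferon, a signal that switches on a shared set of antiviral genes.

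Levels are given as CPM, the usual depth-scaled count, in which a gene's UMI sum in a class or library is scaled to the total there, and they are not corrected for transcript length. The log2 ratio is P14 cKO over P10 cKO after 0.5 UMI was added to each sum. A gene was measured with at least 50 UMIs over both libraries and is counted as higher or lower when it differed at least 2-fold. Genes of chromosomes X and Y were left out throughout. P10 WT was counted with another program version. Its median log2 ratio over P10 cKO went from 0.593 in the shortest genes to -1.29 in the longest. WT levels are therefore only set beside, and no change of a gene from P10 to P14 in WT is read from them. In sums over a whole library, fewer cells of a type and less RNA per cell cannot be told apart.

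Eftud2 itself was at 55.7 CPM in P10 cKO and 45.0 CPM in P14 cKO (log2 ratio -0.31, interval -0.37 to -0.25), beside 52.2 CPM in P10 WT and 47.3 CPM in P14 WT. The gene was therefore detected in both cKO libraries near the WT levels, summed over all cells. Whether the counted tags lie outside the deleted part is not given. The title names Purkinje cells as deficient, and the cell classes compared below are not shown to lack Eftud2. This value therefore does not check the genotype. Prpf8, another U5 protein, was at 66.6 and 66.1 CPM. Of the 38 spliceosomal snRNP protein genes listed, 5 were higher and 33 lower by any amount over the whole library, none by 2-fold, with a median log2 ratio of -0.18 against -0.01 over all genes. With the P14 cell classes combined in the proportions of P10 cKO, as given below, the median of this list was 0.036. The lower sums over the library therefore do not show a lower level within the classes. The Purkinje cell markers Pcp2 and Calb1 gave 58 and 58 UMIs in P10 cKO and 124 and 92 UMIs in P14 cKO, so the cells named in the title are nearly absent from both libraries, and no cluster carried their name.

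The 2 libraries differed little in depth. The cells of P10 cKO held 92097171 UMIs and those of P14 cKO 90390630, and the median cell had 11008 UMIs from 3929 genes in the first and 12347 UMIs from 4118 genes in the second. Cells under 1000 genes made up 2.99% and 11.3% of the cells without called doublets. Sex-linked RNA differed: Xist, made from the inactive X chromosome, was at 0.532 CPM in P10 cKO and 896 CPM in P14 cKO, and the Y-linked Uty at 106 and 0.0111 CPM. Sex as these genes show it therefore differs between the 2 libraries and cannot be told apart from age. The 2 libraries shared 7 cell barcodes.

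Granule cell progenitors took a smaller share of the cKO cells at P14, and microglia, oligodendrocytes, astroglia and blood leukocytes a larger one. Progenitors fell from 1548 of 6417 cells (24.1%) to 624 of 6148 (10.1%), a ratio of 0.421. The WT shares were 26.8% and 16.3%. Microglia went from 180 cells (2.81%) to 407 cells (6.62%), a ratio of 2.36, and astroglia from 143 cells (2.23%) to 216 cells (3.51%), a ratio of 1.58. Blood leukocytes went from 85 cells (1.32%) to 138 cells (2.24%). GABAergic interneurons (10.2% and 9.37%), endothelial cells (1.31% and 1.35%) and fibroblasts (1.84% and 2.05%) had ratios between 0.922 and 1.11, with overlapping intervals. Border macrophages (1.89% and 2.42%) and oligodendrocyte precursors (1.46% and 1.85%) had overlapping intervals as well. Choroid plexus cells were 0 of 6417 at P10 and 14 cells (0.228%) at P14. A floor of 3 counts puts the P10 share at up to 0.0468%, and the upper bound of its exact binomial interval is 0.0575%.

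**Figure D1:**
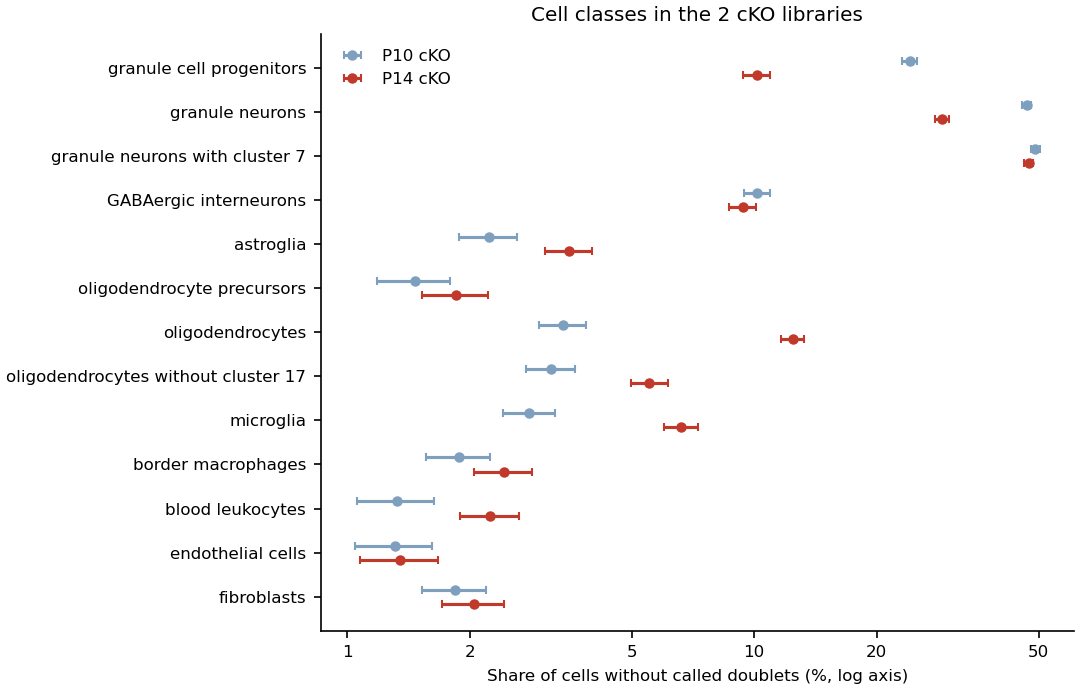
Share of cells without called doublets in each cell class (log axis, %), for P10 cKO (blue) and P14 cKO (red), with exact 95% binomial intervals that hold counting error only. Progenitors lie at 24.1% and 10.1%, microglia at 2.81% and 6.62%, and the granule neuron values come together at 49.0% and 47.2% once cluster 7 is counted with them.

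The shares of granule neurons and oligodendrocytes each rest on 1 cluster. Granule neurons as named went from 2996 cells (46.7%) to 1776 cells (28.9%), a ratio of 0.619. Cluster 7, led by Nrg3, Car10, Pcp4 and Camk4, was left unnamed because its leading genes held more markers of another class. It had 150 cells in P10 cKO, 1128 in P14 cKO and 376 in P14 WT. P10 WT had 0 cells in cluster 7, and also 0 in the granule neuron clusters 0, 1 and 2. That 0 therefore does not show that such cells were absent from P10 WT. With cluster 7 the granule neurons were 49.0% and 47.2%, a ratio of 0.963. Oligodendrocytes went from 218 cells (3.40%) to 764 cells (12.4%), a ratio of 3.66. Cluster 17 held 15 and 424 of them, with a median of 846.5 UMIs a cell at P14, where 365 of the 424 had under 1000 genes and 97 had no UMI of Mbp, the gene of myelin basic protein. With the cKO libraries clustered alone, 219 of these 424 cells fell in unnamed clusters and 197 in oligodendrocytes. Without cluster 17 the shares were 3.16% (203 cells) and 5.53% (340 cells), a ratio of 1.75.

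Over the whole library, genes of immune cells, glia and synaptic maturation were higher at P14 and genes of dividing progenitors lower. Of 17487 genes measured, 1360 (7.78%) were at least 2-fold higher and 351 (2.01%) at least 2-fold lower, while 12288 differed by less than 0.5 on the log2 scale. Among genes with at least 200 UMIs the highest ratio belonged to Ttr, the transthyretin of the choroid plexus, with 8 UMIs in P10 cKO and 14309 in P14 cKO, 95.9% of them in the 14 choroid plexus cells. Next came Cxcl9, a chemokine that attracts T cells, with 0 and 410 UMIs, at least 139-fold higher, and 93.9% of these UMIs came from its 5 richest cells. Ccl1, with 2 and 232 UMIs, came mostly (96.6%) from 5 cells as well. Cxcl10, a chemokine induced by interferon, had 105 and 2928 UMIs (1.14 and 32.4 CPM, log2 ratio 4.82, interval 4.55 to 5.12), spread over 208 cells at P14, with 36.4% in the top 5 and 73.2% in microglia. Npas4, a transcription factor switched on by neuronal activity, had 15 and 231 UMIs, from 148 cells at P14. Nlrp1b, an inflammasome sensor, was at 0.510 and 7.87 CPM, from 272 cells at P14. The upper end of the list thus mixed genes from a handful of cells, such as Ttr, Cxcl9 and Ccl1, with genes from over 200 cells, such as Cxcl10 and Nlrp1b.

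At the lower end, Gzma, a granzyme of cytotoxic lymphocytes, had 228 UMIs in 6 cells of P10 cKO and 1 UMI in P14 cKO. Other low genes included those of progenitors and of moving cilia. Olig3, a transcription factor of rhombic lip derivatives, was at 3.58 and 0.597 CPM (log2 ratio -2.57). Gli2, a transcription factor that carries the Shh signal, was at 82.8 and 29.0 CPM (-1.52). Hist1h2ap, a histone gene of dividing cells, was at 524 and 155 CPM (-1.76). Nxph3, a neurexophilin, was at 11.2 and 3.54 CPM, with 84.1% of its P10 UMIs in progenitors. Dnah12 and Dnah6, dyneins of such cilia, were at 2.57 and 0.420 CPM and at 2.24 and 0.741 CPM. These rest on few cells: Dnah12 had UMIs in 24 cells at P10 and 16 at P14, with 89.0% of the P10 UMIs in 5 cells, and Dnah6 in 60 and 42 cells, with 64.1% in 5. Ependymal cells, which carry such cilia, were 3 at P10 and 2 at P14.

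Much of this difference went with the change in cell classes. When the P14 levels of the classes were combined in the proportions of UMIs found in P10 cKO, 406 genes were 2-fold higher and 258 lower, and of the 1360 higher and 351 lower genes, 346 and 121 remained so. The S phase and G2 and M phase lists, with all 20 and 23 members lower as captured, moved from medians of -0.65 and -0.77 to 0.03 and 0.15. The list of homeostatic microglia genes moved from 1.34 to -0.084, complement from 1.36 to 0.26 and myelin from 1.28 to 0.23. The medians of interferon response (1.31 to 0.53), chemokines (1.47 to 0.54), immediate early genes (1.07 to 0.62), mature granule neuron genes (0.63 to 0.54) and the Shh response (-0.89 to -0.39) kept their sign. These lists were chosen with earlier results of these data known, so their counts are descriptions.

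**Figure D2:**
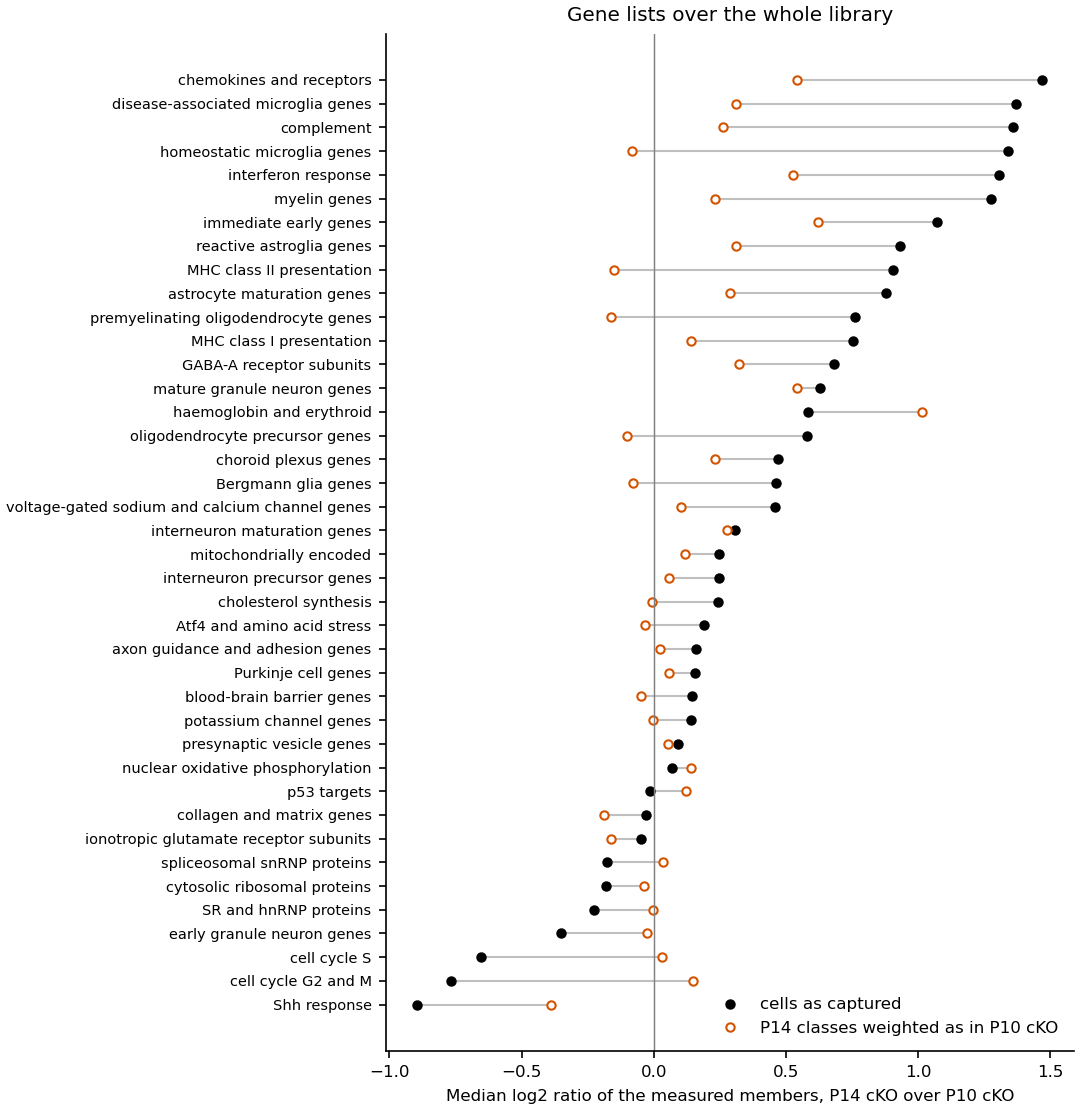
Median log2 ratio of the measured members of 40 gene lists over the whole library, P14 cKO over P10 cKO, with cells as captured (black) and with the P14 classes weighted as in P10 cKO (open orange). Microglia, complement, myelin and cell cycle lists move close to 0, from 1.34 to -0.084 for homeostatic microglia genes, whereas the Shh response stays at -0.39 and immediate early genes at 0.62.

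Interferon-response genes were higher at P14 in microglia, oligodendrocytes, astroglia and fibroblasts. Border macrophages, endothelial cells and blood leukocytes had list medians between -0.34 and 0.19. RNA of the list at P10 was not particular to these last classes. With cells thinned to the same number of UMIs, at least 3 UMIs of the list were found at P10 in 99.1% of border macrophages. The share was 89.9% in blood leukocytes, 78.9% in endothelial cells, 67.0% in fibroblasts and 50.9% in microglia. It was 2.65% in astroglia and 0.541% in oligodendrocytes. The genes of the list summed to 1564 and 4347 CPM in microglia, 6772 and 8205 CPM in border macrophages and 3416 and 3102 CPM in endothelial cells. All 34 autosomal members of the 36 listed were measured over the whole library; all 34 were higher and 25 of them 2-fold, where 7.78% of all genes were 2-fold higher. The promoters of 6 genes are shown, picked among those that carry the binding motif of the interferon-activated factors. The interferon-stimulated response element, searched on both strands as GAAANNGAAA, occurs in 3.44% of the 32851 RefSeq promoters of the mouse (GRCm38.p6, 250 bases before to 50 after the start site) and in 17 of the 28 promoters found for 25 of the listed genes (60.7%). Of the 6 genes, B2m is instead on the MHC class I list, where 5 of 19 promoters hold the motif (26.3%). A match is a run of letters and not a proven site. The 250 bases before the start site are printed 5′ to 3′ on the strand of the gene, with each match in capitals (overlapping matches run together), from Isg15 (a ubiquitin-like protein, chr4:156200819-156201068, minus strand), Rsad2 (viperin, an antiviral enzyme, chr12:26456453-26456702, minus), Ifit3 (an RNA-binding antiviral protein, chr19:34583279-34583528, plus), Bst2 (tetherin, which holds virions at the cell surface, chr8:71537473-71537722, minus), Cxcl10 (chr5:92348890-92349139, minus) and B2m (the light chain of MHC class I, chr2:122147437-122147686, plus). The first match starts 78, 120, 156, 130, 213 and 139 bases before the start site, in that order.
Isg15: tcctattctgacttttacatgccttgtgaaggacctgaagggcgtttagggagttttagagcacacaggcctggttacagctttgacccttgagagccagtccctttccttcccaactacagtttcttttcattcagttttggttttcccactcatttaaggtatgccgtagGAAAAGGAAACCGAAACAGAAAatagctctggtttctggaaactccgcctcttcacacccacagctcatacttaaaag
Rsad2: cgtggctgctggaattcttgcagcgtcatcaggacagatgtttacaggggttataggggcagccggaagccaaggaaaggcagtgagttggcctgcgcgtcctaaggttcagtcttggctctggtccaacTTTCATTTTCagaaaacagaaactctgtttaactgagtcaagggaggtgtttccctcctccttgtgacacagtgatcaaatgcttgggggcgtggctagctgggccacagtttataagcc
Ifit3: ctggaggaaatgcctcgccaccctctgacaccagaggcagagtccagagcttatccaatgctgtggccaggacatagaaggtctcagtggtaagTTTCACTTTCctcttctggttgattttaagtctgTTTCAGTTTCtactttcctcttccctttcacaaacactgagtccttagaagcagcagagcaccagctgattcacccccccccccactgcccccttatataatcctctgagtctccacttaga
Bst2: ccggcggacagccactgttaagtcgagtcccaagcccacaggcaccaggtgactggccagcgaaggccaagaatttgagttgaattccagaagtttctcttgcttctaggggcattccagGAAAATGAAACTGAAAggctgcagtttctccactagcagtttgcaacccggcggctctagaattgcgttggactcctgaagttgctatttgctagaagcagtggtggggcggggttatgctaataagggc
Cxcl10: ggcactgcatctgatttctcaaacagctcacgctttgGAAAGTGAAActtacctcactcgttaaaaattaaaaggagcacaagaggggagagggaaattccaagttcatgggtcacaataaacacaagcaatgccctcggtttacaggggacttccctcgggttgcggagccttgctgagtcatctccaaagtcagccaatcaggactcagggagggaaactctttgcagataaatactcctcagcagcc
B2m: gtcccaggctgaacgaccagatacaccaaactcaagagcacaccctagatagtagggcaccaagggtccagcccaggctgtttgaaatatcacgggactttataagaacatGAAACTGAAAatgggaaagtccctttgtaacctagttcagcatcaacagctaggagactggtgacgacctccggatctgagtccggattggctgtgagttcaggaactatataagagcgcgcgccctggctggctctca

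The genes printed above were picked for holding the motif, so its presence in them is not a result. Rsad2 and Ifit3 hold it on the opposite strand. Of other pairs searched, the kappa B motif GGGANNTTCC was in 3 of 18 chemokine promoters (16.7%; Cxcl1, Cxcl2 and Cxcl10) against 1.47% of all promoters. The GLI motif TGGGTGGTC was in 0 of 12 promoters of Shh response genes against 0.253%, and the cyclic AMP response element TGACGTCA in 2 of 27 promoters of immediate early genes (Btg2 and Dusp1) against 1.79%.

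In microglia, antiviral genes, chemokines and MHC class I genes were higher at P14, and some homeostatic genes, such as P2ry12, were lower by less than 2-fold. Of 9668 genes measured in microglia, 357 (3.69%) were higher and 379 (3.92%) lower. Scaled by the median of ratios this split was 467 and 208, and by trimmed means 479 and 200, since those scalings shift the median of all genes by 0.169 and 0.178; the ratios given here are on the first scale, where all genes had a median of -0.13. Of 32 interferon-response genes measured, 31 were higher, 22 of them 2-fold, with a median of 1.26. Microglia held 1918285 UMIs at P10 and 6313013 at P14, so genes low at P10, such as Rsad2, passed the UMI limit mainly through P14. The limit kept 32 of the 34 autosomal list members, so it can have hidden few lower ones. Rsad2 was at 1.56 and 128 CPM (3 and 809 UMIs, log2 ratio 6.13, interval 4.80 to 8.64), and Cxcl10 at 7.82 and 339 CPM (5.39, 4.71 to 6.28). P14 WT microglia were at 14.6 CPM for Rsad2 and 267 CPM for Cxcl10, so the P14 level of Cxcl10 was close to that of WT and that of Rsad2 was not. Isg15 was at 11.5 and 108 CPM (3.20) and Ifitm3, which blocks viral entry, at 37.0 and 261 CPM (2.81).

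The number of microglia with interferon-response RNA depended on the gene. With every cell thinned to 2000 UMIs, 85 of 167 microglia (50.9%) had at least 3 UMIs of the interferon list at P10 and 298 of 372 (80.1%) at P14. The richest 10% of the cells held 28.1% and 35.4% of these UMIs. Rsad2 alone had a UMI in none of the thinned cells at P10 and in 4.84% at P14. The median of the list was 1.32 with the clusters of the class weighted alike and 1.15 in thinned cells.

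Among chemokines, Ccl4 was at 938 and 3982 CPM in microglia (2.08) and Ccl3 at 604 and 1923 CPM (1.67). Cxcl2, which attracts neutrophils, was at 7.30 and 94.6 CPM. Ccl5 was at 1.04 and 89.3 CPM, beside 0.711 and 86.3 CPM in WT. Of MHC class I genes, B2m was at 1246 and 3030 CPM (1.28) and H2-D1 at 353 and 883 CPM (1.32). The genes of the phagocytic, disease-associated state did not go one way. Lgals3, which encodes galectin-3, was at 7.82 and 63.8 CPM (2.98) and Cst7, a cystatin, at 25.5 and 71.9 CPM (1.48). Gpnmb, a glycoprotein of phagocytes, was at 58.9 and 7.13 CPM (-3.04, interval -3.58 to -2.54) and Spp1, osteopontin, at 229 and 78.6 CPM (-1.55). In WT microglia Gpnmb was at 20.4 and 6.05 CPM and Spp1 at 221 and 87.9 CPM.

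Of the 17 homeostatic microglia genes measured, 5 were higher and 12 lower by any amount, and none 2-fold. P2ry12, the purine receptor of resting microglia, was at 1412 and 827 CPM (-0.77), Mertk, a receptor for dying cells, at 972 and 641 CPM (-0.60) and Sall1, a transcription factor of microglial identity, at 237 and 154 CPM (-0.62). Csf1r, the receptor microglia need to survive, was at 1796 and 1707 CPM (-0.07). Prkd1, a protein kinase, was at 0.521 and 102 CPM, beside 0.237 and 136 CPM in WT microglia. Summed markers of border macrophages in microglia were 322 and 203 CPM those of blood leukocytes 46.9 and 66.2 CPM and those of oligodendrocytes 343 and 570 CPM; their part in these results was not tested.

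**Figure D3:**
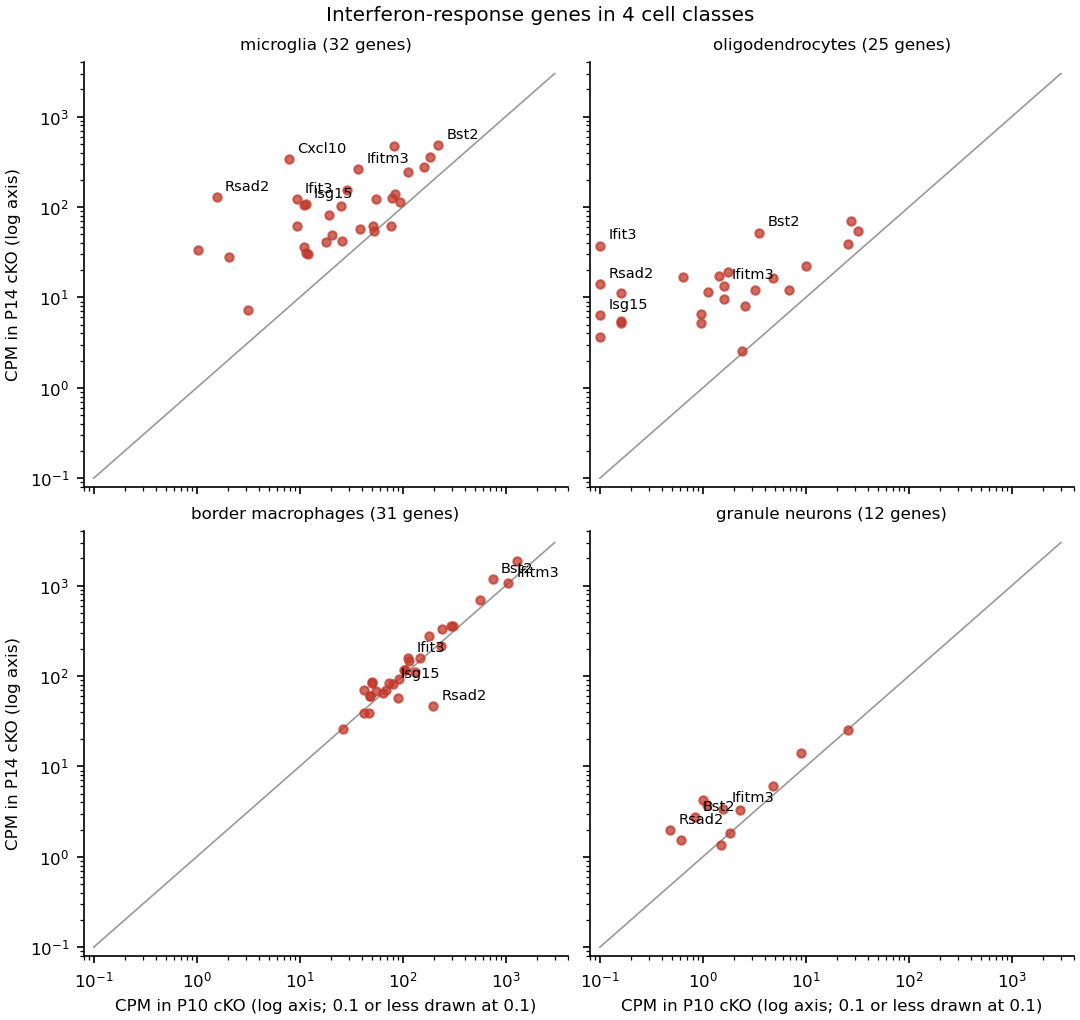
CPM of each measured interferon-response gene in P10 cKO (x axis) and P14 cKO (y axis), both on log axes, in 4 classes; the line marks equal levels and 0.1 CPM or less is drawn at 0.1. Most microglia values lie above the line (31 of 32 genes), as does Bst2 in oligodendrocytes (3.50 and 52.2 CPM); border macrophages lie close to it (median 0.19), and granule neurons stay at low levels, with Rsad2 well below 10 CPM.

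Oligodendrocytes had almost no interferon-response RNA at P10 and a clear amount at P14, held by a minority of the cells. Of 11453 genes measured, 243 (2.12%) were higher and 276 (2.41%) lower; scaled by the median of ratios or by trimmed means the split was 278 and 206, a shift of 0.111 and 0.109. The limit of 50 UMIs was passed by 25 interferon genes, several of them only through P14, so their direction was partly fixed by the limit and nothing is read from their count. Ifit3 had 0 UMIs at P10 and 508 at P14 (37.4 CPM), at least 78.4-fold higher, and Rsad2 had 0 and 191 UMIs (14.1 CPM), at least 29.5-fold higher. Bst2 was at 3.50 and 52.2 CPM (3.87, interval 3.29 to 4.58) and B2m at 17.3 and 84.9 CPM (2.28). In WT oligodendrocytes Bst2 was at 4.91 and 10.4 CPM and Ifit3 at 0.770 and 1.52 CPM. At least 3 UMIs of the list were found in 1 of 185 thinned cells at P10 (0.541%) and in 37 of 347 at P14 (10.7%), and the richest 10% held 61.0% of the P14 UMIs. Without cluster 17, Bst2 was at 3.70 and 49.8 CPM and Ifit3 at 0 and 38.6 CPM. Summed leukocyte markers in oligodendrocytes were 1.75 and 150 CPM and microglia markers 78.3 and 156 CPM; their part was not tested.

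The myelin genes Mbp and Mog differed little within oligodendrocytes without cluster 17, in contrast to their sums over the library, while some later myelin genes were higher. Over all cells Mbp was at 585 and 1370 CPM and Mog, a protein of the outer myelin surface, at 118 and 262 CPM. Within oligodendrocytes without cluster 17, Mbp was at 7662 and 7729 CPM (0.01) and Mog at 1753 and 1709 CPM (-0.04). Of the later genes, Mobp was at 2893 and 4015 CPM (0.47) and Opalin at 219 and 373 CPM (0.77). Over all oligodendrocytes, thinned cells had a mean of 45.8 UMIs of the myelin list at P10 and 63.7 at P14. Genes of newly formed oligodendrocytes, Gpr17 (400 and 396 CPM) and Enpp6 (997 and 911 CPM), were near the same level. Pld2, a phospholipase, was at 55.9 and 2.87 CPM over all oligodendrocytes (-4.26) and at 63.0 and 2.28 CPM in WT, and Mink1, a kinase, at 259 and 82.5 CPM (-1.65) and at 249 and 45.8 CPM in WT. P10 WT was counted with another program version, so no direction is read in WT. In oligodendrocyte precursors, 90 of 8960 genes (1.00%) were higher and 85 (0.949%) lower, or 111 and 64 under both other scalings, and Pdgfra, the growth factor receptor that defines them, was at 573 and 679 CPM (0.24).

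Border macrophages, which sit along vessels and in the brain's coverings, already had high interferon-response RNA at P10. Of 6497 genes measured, 129 (1.99%) were higher and 183 (2.82%) lower, or 177 and 122 by the median of ratios, a shift of 0.113, and 156 and 140 by trimmed means. The interferon list had a median of 0.19, and 107 of 108 thinned cells at P10 and 120 of 121 at P14 had at least 3 of its UMIs. Isg15 was at 80.3 and 80.6 CPM and Ifitm3 at 1065 and 1064 CPM. Bst2 was higher, at 751 and 1187 CPM (0.66), while the summed CPM of Rsad2 was lower, at 199 and 46.7 CPM (-2.08, interval -2.50 to -1.70). The share of thinned border macrophages with a UMI of Rsad2 went the other way, from 6.48% to 8.26%, so no order of the 2 ages is read for Rsad2 in this class. Cxcl10 had a higher summed CPM at P14 in microglia and a lower one in border macrophages. The low-UMI cluster 28 held 13.2% and 32.2% of the class.

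Endothelial cells and fibroblasts differed in the same list. Endothelial cells had an interferon median of -0.01, and 212 (2.90%) of 7315 genes were higher and 109 (1.49%) lower. H2-D1 was lower there, at 814 and 528 CPM (-0.62), as was Mcm5, a DNA replication helicase subunit, at 33.0 and 4.36 CPM (-2.83). Fos, an immediate early gene, was at 126 and 877 CPM (2.80). Cldn5, the tight junction protein of the blood-brain barrier, was at 4794 and 4540 CPM and Slc2a1, the glucose transporter, at 809 and 1043 CPM, and 0 of the 22 barrier genes measured differed 2-fold. In fibroblasts 269 (3.07%) of 8773 genes were higher and 207 (2.36%) lower, or 345 and 119 by the median of ratios and 324 and 132 by trimmed means, shifts of 0.142 and 0.107. Of interferon genes in fibroblasts, Ifit3 was at 45.3 and 233 CPM (2.36), Bst2 at 113 and 265 CPM (1.23), and Cxcl10 had 0 and 174 UMIs. Collagen genes were slightly lower, with Col3a1 at 3253 and 2361 CPM (-0.46).

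Blood leukocytes had a larger part of B lineage cells at P14. Of 6955 genes, 484 (6.96%) were higher and 383 (5.51%) lower. Cluster 29, led by MHC class II genes, held 48.2% of the class at P10 and 26.8% at P14, and cluster 31, led by the B cell genes Igkc, Cd79a and Vpreb3, held 28.2% and 52.2%. Vpreb3, a gene of pre-B cells, was at 100 and 661 CPM (2.71). The interferon list had a median of -0.34 in this class.

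Astroglia had lower levels of cholesterol synthesis genes at P14, and Hmgcs1 and Cyp51 were lower within each of their 3 clusters. Of 9116 genes measured, 202 (2.22%) were higher and 168 (1.84%) lower, or 245 and 117 by the median of ratios, a shift of 0.104, and 239 and 121 by trimmed means. All 20 cholesterol genes measured were lower by some amount and 2 by 2-fold, with a median of -0.79 against -0.09 over all genes. Cyp51, a demethylase of the pathway, was at 385 and 180 CPM (-1.10, interval -1.27 to -0.93) and Hmgcs1, an early enzyme of it, at 553 and 280 CPM (-0.98). In WT astroglia Hmgcs1 was at 795 and 317 CPM and Cyp51 at 455 and 282 CPM, with P10 WT counted by another program version. Within clusters 23, 25 and 20, Hmgcs1 differed by -0.72, -1.11 and -1.02 and Cyp51 by -0.83, -0.88 and -0.92.

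Genes of Bergmann glia, the radial astrocytes that guide granule cells, were lower over the class, and the mix of clusters differed as well. Gria1, an AMPA receptor subunit, was at 2347 and 826 CPM (-1.51), Gdf10 at 716 and 404 CPM (-0.82) and Slc1a3, which takes up glutamate, at 4376 and 2765 CPM (-0.66). Cluster 23, led by Gria1, Tnc and Gdf10, held 56 of 143 cells at P10 (39.2%) and 29 of 216 at P14 (13.4%), and cluster 25, led by Aqp4, held 54 cells at P10 and 108 at P14. Within cluster 23, Gdf10 was at 1319 and 1549 CPM (0.23) and Slc1a3 at 6985 and 7403 CPM (0.08), while Tnc, a matrix protein, differed by -0.25 and Wif1, which binds Wnt ligands, by -0.92. Gria1 was lower within each of clusters 23, 25 and 20, by -0.36, -0.53 and -1.70. Slc1a3 differed by -0.20 and -0.28 within clusters 25 and 20. With the clusters weighted alike the Bergmann list went from a median of -0.43 to 0.01 and the astrocyte maturation list from 0.45 to 0.05. Col23a1, a transmembrane collagen, was lower both over the class, at 468 and 98.6 CPM (-2.24), and within cluster 23 (867 and 318 CPM, -1.44), and so was Kcnip1, a potassium channel partner, at 209 and 33.5 CPM within cluster 23 (-2.61). In WT astroglia Col23a1 was instead at 66.7 CPM at P10 and 322 CPM at P14, where P10 WT was counted with another program version. Bst2 was at 4.18 and 50.5 CPM in astroglia (3.50) and Ifitm3 at 13.7 and 72.3 CPM (2.37), with microglia markers summing to 55.5 and 256 CPM and erythroid markers to 20.3 and 292 CPM; their part was not tested.

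**Figure D4:**
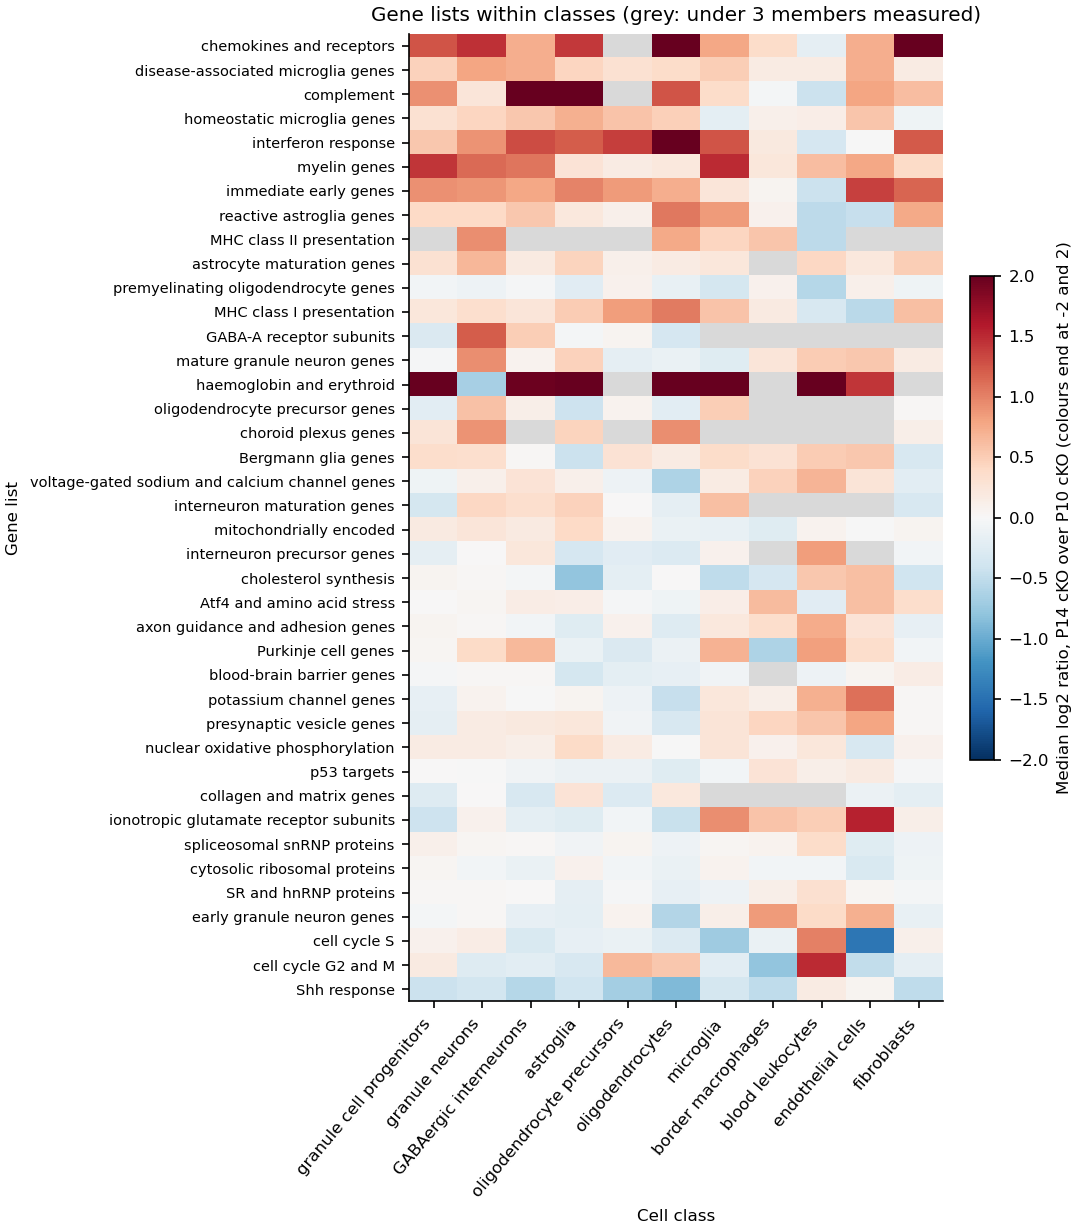
Median log2 ratio of the measured members of each gene list (rows) within each class (columns), P14 cKO over P10 cKO; red is higher at P14, blue lower, and grey marks under 3 measured members. The interferon row is at 1.26 in microglia and -0.34 in blood leukocytes, and the cholesterol row is lowest in astroglia, at -0.79.

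Granule cell progenitors had lower Shh response genes at P14 while their cell cycle genes were level or slightly higher. Of 12760 genes measured, 166 (1.30%) were higher and 182 (1.43%) lower. Of the 17 Shh response genes, all measured, 2 were higher and 15 lower by any amount, 1 of them by 2-fold, with a median of -0.43 against -0.05 over all genes. The list holds receptors, co-receptors and transcription factors of the pathway besides its targets, so its median does not measure the response to Shh alone. Boc, a co-receptor that helps Shh bind, was at 191 and 89.8 CPM (-1.09, interval -1.18 to -0.99) and Ptch1, the receptor and a target of the pathway, at 206 and 131 CPM (-0.65, -0.73 to -0.57). Ptch1 had a UMI in 31.8% and 22.1% of thinned cells. Among the transcription factors, Gli2 was at 199 and 126 CPM (-0.66) and Gli1, the pathway's most direct target, at 18.7 and 15.5 CPM (-0.27), while Gli3 was at 84.6 and 86.8 CPM (0.04). Of the growth targets, Mycn was at 83.7 and 51.9 CPM (-0.69), Ccnd1, a cyclin that starts the cycle, at 111 and 70.0 CPM (-0.66) and Ccnd2 at 1496 and 1301 CPM (-0.20). Atoh1, the transcription factor that keeps progenitors undifferentiated, was at 43.7 and 37.9 CPM (-0.20).

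The cell cycle lists did not follow. The S phase list had a median of 0.09 and the G2 and M list of 0.18 within progenitors, with no member past 2-fold. Pcna, the DNA polymerase clamp, was at 181 and 249 CPM (0.46), Mki67, a marker of cycling cells, at 630 and 694 CPM (0.14) and Top2a, a topoisomerase of mitosis, at 917 and 969 CPM (0.08). Over the whole library, by contrast, Top2a was at 343 and 179 CPM and Mki67 at 237 and 132 CPM. The lower sums over the library thus went with a smaller share of progenitors, whose own CPM of these genes was level. Clusters 4, 6 and 15 held 43.9%, 34.1% and 18.6% of the progenitors at P10 and 38.0%, 33.8% and 18.6% at P14, and with clusters weighted alike the Shh median was -0.44. Outside the lists, Rnf43, a brake on Wnt signalling, was at 13.2 and 1.19 CPM (-3.43), beside 5.47 and 1.08 CPM in WT. Ngfr, the p75 neurotrophin receptor, was at 6.61 and 1.59 CPM (-2.03).

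**Figure D5:**
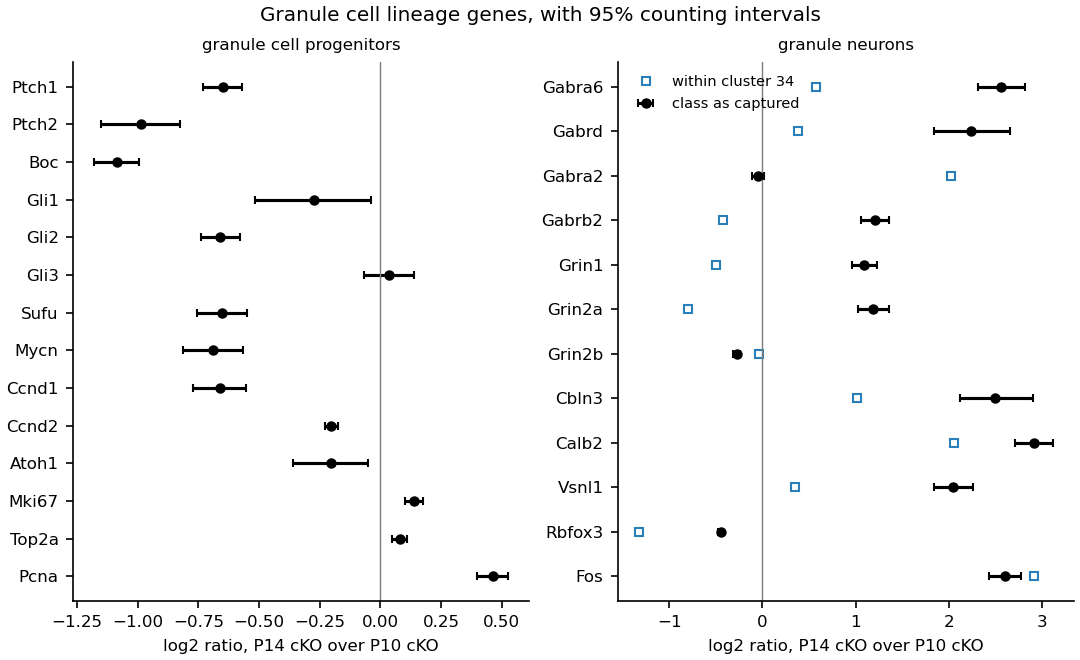
Log2 ratio, P14 cKO over P10 cKO, of Shh and cell cycle genes in granule cell progenitors (left) and of receptor subunits and other maturation genes in granule neurons (right), with 95% counting intervals (black) and, on the right, the ratio within cluster 34 alone (open squares). Ptch1, Gli2 and Ccnd1 lie near -0.65 while Mki67 and Top2a lie above 0; Gabra6 lies at 2.56 over the class and at 0.57 within cluster 34.

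Granule neurons as a class had more RNA of late receptor subunits at P14, and 1 small cluster that carries many of them made up more of the class. Of 13092 genes measured, 476 (3.64%) were higher and 102 (0.779%) lower. Of 23 mature granule neuron genes, 21 were higher, 11 of them 2-fold, with a median of 0.93. Gabra6, the GABA-A subunit found almost only in mature granule neurons, was at 5.36 and 31.7 CPM (2.56, interval 2.31 to 2.82), with a UMI in 1.18% and 4.23% of thinned cells. Gabrd, the subunit of tonic inhibition, was at 2.18 and 10.3 CPM (2.24). Cbln3, a synaptic organizer, was at 2.25 and 12.7 CPM (2.50). Gabra2, an early subunit, was at 149 and 144 CPM (-0.05). Among NMDA receptor subunits, Grin2a, which replaces Grin2b as synapses mature, was at 16.2 and 37.1 CPM (1.19) and Grin2b at 555 and 459 CPM (-0.27), so Grin2b remained the more counted of the pair in both libraries. The class values leave out cluster 7, with 150 and 1128 cells. There Grin2b was at 1250 and 1077 CPM and Gabra2 at 514 and 517 CPM, above the class. The direction of Grin2b and Gabra2 from P10 to P14 therefore depends on whether cluster 7 is counted.

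Cluster 34, led by Kcnip4, Gabra6 and Grin2a, held 106 of the granule neurons at P10 and 124 at P14 (3.54% and 6.98%), and 1.40% and 6.15% of their UMIs. Its median cell had 2429 UMIs from 1338 genes at P10 and 8457 UMIs from 3116.5 genes at P14. Ratios within cluster 34 thus set shallow cells against deeper ones, and the part of depth in them was not tested. Gabra6 was at 342 and 510 CPM within cluster 34 (0.57), at 0.457 and 0.136 CPM within cluster 0, and at 0.858 and 0.576 CPM within cluster 1. Grin2a was lower within cluster 34, at 977 and 561 CPM (-0.80), although higher over the class. Not all genes went with cluster 34: Grin1, the obligate NMDA subunit, was higher within cluster 0, at 47.3 and 92.1 CPM (0.96, interval 0.79 to 1.13), and lower within cluster 34 (-0.50). Vsnl1, a neuronal calcium sensor, was higher within cluster 0 as well (0.78). With the clusters weighted alike the mature granule neuron list had a median of 0.17 and the GABA-A list of 0.25, in place of 0.93 and 1.21. Calb2, the calcium buffer calretinin, was still higher within cluster 34, at 174 and 727 CPM (2.05). In cluster 7, Gabra6 was at 0.835 and 3.38 CPM, Grin1 at 236 and 263 CPM and Kcnd2, a potassium channel of A-type currents, at 1660 and 2037 CPM. Counted with cluster 7, 834 (6.13%) of 13610 genes were higher and 183 (1.34%) lower, and Grin1 was at 32.9 and 132 CPM.

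Early granule neuron genes were level in granule neurons as named, with a median of 0.03 over 19 measured, and Neurod1, the transcription factor of granule cell differentiation, at 2293 and 2291 CPM. Thinned cells there had a mean of 44.7 and 45.2 UMIs of this list. With cluster 7 counted in, the means were 44.0 and 39.0 UMIs. Immediate early genes, which are switched on within minutes of a stimulus, were higher: 21 of 21 measured, 10 of them 2-fold, where 3.64% of all genes in the class were 2-fold higher. Fos was at 10.8 and 65.5 CPM (2.60), Junb at 12.7 and 41.9 CPM (1.72) and Egr1 at 76.5 and 176 CPM (1.20). Fos differed by 2.07, 1.93, 2.41, 2.91 and 1.91 within clusters 0, 1, 2, 34 and 7. P10 WT granule neurons were at 51.3 CPM for Fos and P14 WT at 30.2 CPM, so the P10 cKO library was the lowest of the 4. The interferon list was at a summed 55.2 and 81.6 CPM in granule neurons, far below those of microglia; 3 of 2894 and 6 of 1704 thinned cells had at least 3 of its UMIs, while summed microglia markers in these neurons were 29.8 and 75.1 CPM. Its median there was 0.90 as captured and 0.12 in thinned cells.

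GABAergic interneurons, the inhibitory cells of the molecular and granular layers, had higher levels of the genes for making GABA and for several receptor subunits at P14. Of 11272 genes measured, 228 (2.02%) were higher and 145 (1.29%) lower. Of the 16 interneuron maturation genes measured, 11 were higher and 5 lower by any amount, 2 of them 2-fold higher, with a median of 0.34. Gad1 and Gad2, the enzymes that make GABA, were at 420 and 527 CPM (0.33) and at 248 and 364 CPM (0.55). Gabra2 was at 51.0 and 114 CPM (1.16) and Nxph1, a neurexin ligand, at 14.6 and 41.5 CPM (1.51). Pax2, the transcription factor of interneuron precursors, was at 731 and 564 CPM (-0.37). At the finer clustering resolution a cluster led by Pax2 held 400 cells at P10 and 242 at P14 and a cluster led by Gad1 and Gad2 222 and 294 cells, so the class was made up differently at the 2 ages; the part of this in the values over the class was not tested. Fabp3, a fatty acid carrier, was at 26.1 and 161 CPM (2.62, interval 2.40 to 2.85), with 15.7 and 102 CPM in WT. Unc45b, a myosin chaperone, had 65 UMIs at P10 and 0 at P14, at least 21.1-fold lower, and was at 7.44 and 0 CPM in WT. Fos was again higher, at 72.3 and 341 CPM (2.23).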

How the data were processed

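The 4 libraries (P10 WT, P10 cKO, P14 WT, P14 cKO) are 1 per group and come from droplet-based single-cell RNA sequencing of whole cerebellum. Raw counts (UMIs for each gene in each barcode) were deposited as matrices. Genome build mm10 and the programs Cell Ranger 3.0.2 and Seurat 4.1.3 are named in the submitters' processing notes. Per the file headers, however, version 7.0.1 of Cell Ranger made the P10 cKO matrix, version 7.1.0 the P14 cKO and P14 WT matrices, and version 5.0.0 that of P10 WT. Whether introns were counted is not given in the sources used here; by gene span P14 cKO and P10 cKO were alike and P10 WT was not, so WT values are only set beside. The MAS-seq (long-read) part of the study was not analysed here.

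Barcodes under 500 genes (104 in P10 cKO, 940 in P14 cKO) or over 20% mitochondrial UMIs (22 and 33) were left out. Gene positions came from GENCODE vM21; 32235 of 32285 IDs matched, and 1809 genes of X and Y were dropped, leaving 30426. Doublets were scored with Scrublet in Scanpy 1.11.5; its automatic calls were 0 in 2 libraries, so 1 threshold (0.220) was used for all, which called 176 and 160 cells. These stay in whole-library sums and out of the classes. All 4 libraries were clustered jointly without batch correction (2500 variable genes, 40 components, 20 neighbours, Leiden resolution 1, seed 1; leidenalg 0.10.2, igraph 0.11.9, scikit-learn 1.9.0), giving 40 clusters, 38 of them named when at least 3 of the 209 markers of 17 classes were in 25% of cells at over 2 times the level elsewhere after 5 CPM were added. Haemoglobin genes were dropped from naming after their RNA was seen in all clusters. The 11 classes with at least 50 cells in each cKO library were compared.

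UMIs were summed per class; ratios have exact conditional intervals and shares exact binomial (Clopper-Pearson) ones, at 95%, covering counting error alone. For a gene at 0 UMIs the floor was 3 counts over the group. For shares of cells with a UMI, cells were thinned to 2000 UMIs, leaving out 258 and 731 cells. No test was run, since 1 library a side allows none. The scripts were tested on simulated data. Alternatives were other scalings, count and cell filters, thinning, other clusterings and clusters or classes weighted alike.

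Genes named are the 15 highest and lowest over the library with at least 200 UMIs, the 5 highest and lowest per class where the class is a main source, the extreme and most counted members of the 40 lists, and a fixed set that includes Eftud2; only some are given, and a few results on single genes are not reported here. Other list members named beside them were chosen after their values were seen. The members and lists were chosen with earlier results of these data known. Python 3.11.15, NumPy 2.4.6, SciPy 1.17.1, pandas 2.3.3 and matplotlib 3.10.9 were used.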

Additional observations from a re-analysis of the deposited data

Results flagged for a closer look

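In the classes given here the share went opposite ways from P10 to P14 in the 2 genotypes, with intervals that do not overlap between the ages in either genotype; none of these differences between genotypes was tested, since each rests on 1 library per group. The share of blood leukocytes at P14 over P10 had a ratio of 1.69 in cKO and 0.404 in WT. The share of granule neurons had a ratio of 0.619 in cKO and 2.98 in WT. With cluster 7 counted in, the cKO ratio was 0.963 and the cKO intervals overlapped (47.8% to 50.3% at P10 and 46.0% to 48.5% at P14). Granule neurons therefore meet the condition above only without cluster 7. The share of microglia had a ratio of 2.36 in cKO and 0.517 in WT. The share of oligodendrocytes had a ratio of 3.66 in cKO and 0.559 in WT, and without the low-UMI cluster 17 these were 1.75 and 0.799. Border macrophages, oligodendrocyte precursors, fibroblasts and endothelial cells also had a lower share at P14 in WT and a cKO ratio above 1, but with overlapping cKO intervals. Their cKO ratios were 1.29, 1.27, 1.11 and 1.03, and their WT shares went from 10.1% to 0.450%, 3.19% to 1.65%, 9.29% to 1.97% and 6.17% to 1.82%, in that order. P10 WT, which enters all of these WT ratios, held 8.74% microglia, 10.1% border macrophages and 3.88% blood leukocytes, and was written by another program version than the other 3 libraries.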

How the results depend on the processing

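No paired analysis was possible because the labels give no replicate numbers and each group has 1 library. Over all alternatives, 110 of 151 gene counts stayed within 1.5 times, 4381 of 4846 list medians and 1853 of 2067 named-gene ratios were close to the value given, and 48 of 57 shares stayed in their counting interval; the settings that moved a value are these. Without a filter on low counts, 3588 genes were 2-fold higher and 2053 lower over the library; at 200 UMIs 206 were lower; in thinned cells 669 were higher and 194 lower; and with the classes mixed as in P10 cKO 406 were higher. Genes differing 2-fold within a class, with no filter, at 200 UMIs and in thinned cells, were 5016, 128 and 131 in GABAergic interneurons; 4065, 98 and 110 in astroglia; 4983, 229 and 232 in blood leukocytes, and 455 with the cKO libraries clustered alone. They were 4836, 67 and 95 in border macrophages, 4802, 72 and 33 in endothelial cells, 5010, 137 and 86 in fibroblasts, and 4059, 119 and 174 in granule cell progenitors. They were 5495, 230 and 230 in granule neurons (1017 with cluster 7), 4190, 242 and 224 in microglia, 4370, 24 and 34 in oligodendrocyte precursors, and 4610, 167 and 86 in oligodendrocytes. A stricter filter or thinning leaves fewer genes to count. Of list medians of at least 1 in size, the sign changed for homeostatic microglia genes over the library with classes mixed as in P10 cKO (-0.084), for complement in thinned interneurons (-0.21), and for chemokines in fibroblasts at 200 UMIs (-0.22) and thinned (-0.12), in place of 2.84. Smaller medians changed sign too; with classes mixed as in P10 cKO these include MHC class II (0.91 to -0.15), premyelinating oligodendrocyte (0.76 to -0.16), precursor (0.58 to -0.10), Bergmann glia (0.46 to -0.079), S phase (-0.65 to 0.030) and G2 and M phase genes (-0.77 to 0.15). Single genes changed sign as follows. In thinned oligodendrocyte precursors Mybpc1 came to -0.27, Hes5 to 0.019, Nubpl to 0.21 and Nrde2 to 1.31. In blood leukocytes Lyz1 came to 0.14 at resolution 2, and Spp1, Ctsg and Mpo to -1.64 with the cKO libraries clustered alone. Samd3 in granule neurons came to -0.23 with that clustering. In oligodendrocytes Prg2 came to -0.91 in thinned cells and Ctsg to -1.08 with the cKO libraries clustered alone and to -1.11 without cluster 17. Ratios of shares became 2.38 for blood leukocytes and 1 for border macrophages with the cKO libraries clustered alone, 0.501 for progenitors at resolution 2, and 0.667 (at least 1000 genes a cell) and 0.963 (with cluster 7) for granule neurons. For oligodendrocytes they became 2.13 at 1000 genes, 4.99 at resolution 2, 2.57 with the cKO libraries clustered alone and 1.75 without cluster 17. The causes were not tested. Cluster 7, cluster 17, the doublet threshold and the haemoglobin choice were taken up after seeing the data. Other clusterings were not run for the whole library, which uses none, and clusters weighted alike were not run for interneurons, endothelial cells and precursors, which have 1 usable cluster. Depth limits genes with few UMIs, since the counts above move with the filter on UMIs.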
